A study of Homo sapiens and Mus musculus with 47 samples.

Results

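LINC00641, a long noncoding RNA that the study picked out near H3K27me3-marked chromatin, was lowered in HEK293T cells with an antisense oligonucleotide (ASO), and poly(A) RNA was then sequenced. HEK293T is a human embryonic kidney line that carries the SV40 large T antigen. The comparison used 5 libraries of the 47 samples in the series: 2 of cells given the LINC00641 ASO, numbered 2 and 3, and 3 of cells given the negative control ASO. They were chosen by sample label alone. The same table also held 3 libraries each of HEK293T cells given an ASO against SETD5-AS1 or LINC00662, both noncoding RNAs as well. A further 3 HEK293T RNA-seq control libraries, which the study describes as untreated cells, came from another table, so that ASO treatment and experiment cannot be told apart in any contrast with them. The labels attach 1 growth protocol, written for the labelling of chromatin-associated RNA, to all of these samples, and give neither the dose and duration of the ASO in the RNA-seq samples nor which LINC00641 ASO was used. The study describes the RNA-seq control as independent replicates, but no source used here says that the ASO libraries of a group came from separate cultures, so each p-value measures the spread between these libraries, which may be technical.

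An ASO of this kind is a short DNA strand that pairs with its target RNA and lets ribonuclease H cut the RNA, in the nucleus as well as in the cytoplasm. It can therefore act on unspliced transcripts, introns included, and a partial match elsewhere in the transcriptome is a known source of unintended knockdown. H3K27me3 is the repressive mark deposited by Polycomb repressive complex 2 (PRC2, with EZH2 or EZH1 as its enzyme) and read by the CBX proteins of PRC1. The study lowered such RNAs to learn what part they play in regulation at chromatin that carries the mark.

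The 3 oligonucleotide sequences are shown because they fix which transcripts each ASO could pair with. They are the designed sequences listed by the study, given 5′ to 3′, with no part in capitals.
LINC00641-ASO-1: gatgtggagcaacagaaatg
LINC00641-ASO-2: gatagtggtatagtaactgg
ASOXNC23: ttctccgaacgtgtcacgtt

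ASOXNC23 is the control ASO. It held 3 CpG dinucleotides and 50% G and C, whereas LINC00641-ASO-1 and LINC00641-ASO-2 held no CpG and 45% and 40% G and C. On the hg19 build, LINC00641 lies on the minus strand at chr14:21668238-21675059. Both targeting ASOs matched an exon of it perfectly, at chr14:21668966-21668985 for LINC00641-ASO-1 and at chr14:21668698-21668717 for LINC00641-ASO-2. Across the genome, LINC00641-ASO-2 had no site with 1 mismatch and 8 sites with 2, of which 1 lay on the transcribed strand of a tested gene, in an intron of ZCCHC17. LINC00641-ASO-1 had many more near matches, with a second perfect site in an intron of RGS7BP (chr5:63867375-63867394, plus strand), 49 sites with 1 mismatch and 459 with 2. The control ASO had no site with fewer than 2 mismatches and 1 site with 2, in no tested gene. The target strand of the sites described here read as follows, 5′ to 3′ in hg19, with paired bases in capitals and mismatched bases in lower case.
LINC00641 exon and RGS7BP intron, LINC00641-ASO-1: CATTTCTGTTGCTCCACATC
LINC00641 exon, LINC00641-ASO-2: CCAGTTACTATACCACTATC
ZCCHC17 intron, LINC00641-ASO-2: CCAGaTACTATACCACTAcC

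LINC00641 itself was nearly lost. With its ASO the gene (ENSG00000258441.1) had 12 and 27 reads, or 0.915 and 1.92 CPM (counts scaled to library size), in replicates 2 and 3. The control ASO libraries had 43.1, 38.5 and 41.4 CPM, and no library of any other group came near the level of the treated cells. The means were 1.42 ± 0.713 CPM (SD, n = 2) with the LINC00641 ASO, 41.0 ± 2.34 (n = 3) with the control ASO, 26.6 ± 2.67 (n = 3) with the SETD5-AS1 ASO, 35.3 ± 3.02 (n = 3) with the LINC00662 ASO and 28.9 ± 3.38 (n = 3) in the RNA-seq control. The level left was 3.46% of that with the control ASO, a log2 fold change of -4.81 ± 0.19 (SE, edgeR quasi-likelihood test, Benjamini-Hochberg adjusted p = 4.82e-13). It was -4.20 ± 0.22 when the SETD5-AS1 ASO was the reference (adjusted p = 5.37e-08) and -4.61 ± 0.20 against the LINC00662 ASO (adjusted p = 2.42e-12). RGS7BP, which carries the second perfect LINC00641-ASO-1 site in an intron, had a log2 fold change of -0.79 ± 0.36 against the control ASO that did not pass the test (adjusted p = 0.0733).

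The libraries were of like depth, between 11641275 and 13839088 counts over the 5 compared. Mitochondrially encoded genes took 2.18% to 2.27% of the counts in the LINC00641 ASO libraries, 3.05% to 3.48% in the control ASO libraries and 2.87% to 3.11% in the RNA-seq control. Genes with at least 1 read numbered 21776 and 21778 after LINC00641 ASO treatment and ranged from 22441 to 22848 for the control ASO. All 8 HEK293T markers listed were expressed and summed to 2276 to 2332 CPM, against 1830 to 1931 in the control ASO libraries. Of 7 colon markers CEACAM5 was at 0 in these groups, and the list summed to 42.9 to 43.8 CPM against 69.2 to 84.6. Only 3 colon markers had enough reads to test, CDX2 among them. All 3 were called lower than with the control ASO by the thresholds given below, beside 11.5% of all genes tested. Of 7 fibroblast markers DCN, THY1 and COL1A2 were at 0 with the LINC00641 ASO, and that list summed to 42.0 to 49.6 CPM against 80.9 to 88.8. Of the 4 fibroblast markers tested, 2 were called lower and 2 were not called. The part of these differences in the results was not tested.

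A gene was called when its adjusted p was under 0.05 and its log2 fold change at least 0.75 in size. Against the control ASO, 22.5% of the 18503 genes tested were called, with 2034 higher (11%) and 2124 lower (11.5%) in the LINC00641 ASO cells. The treated libraries lay above all control ASO libraries for 32.1% of the genes tested and below them for 33.1%. The genes that fell against the control ASO were short, with a median span from first to last base of 12.6 kb. The median was 27.4 kb for all genes tested and 71.1 kb for those that rose. Among the same genes, those lower than with the SETD5-AS1 ASO had a median of 44.03 kb and those higher 70.15 kb. Against the LINC00662 ASO the medians were 28.99 kb and 110.27 kb. The genes tested in these comparisons had medians of 28.19 kb and 28.1 kb. The read counts were taken over these whole spans, so intronic reads may be included.

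Among genes that averaged 100 counts or more, the largest fall after LINC00641 was in SGK1, a glucocorticoid- and stress-induced kinase. Its levels were 5.03 and 4.21 CPM with the LINC00641 ASO against 108.5, 112.4 and 110.4 with the control ASO, a log2 fold change of -4.56 ± 0.12 (adjusted p = 2.04e-15). The RNA-seq control libraries had 3.72, 3.08 and 3.28 CPM, and the SETD5-AS1 and LINC00662 ASO means were 4.95 and 6.28. The control ASO libraries therefore stood alone at a high level, and the cells given the LINC00641 ASO lay near every other group.

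FOSB, WDR74 and SNAI1 showed the same arrangement. FOSB, a subunit of the AP-1 transcription factor, had 2.52 and 4.56 CPM against 36.9 to 40.8 with the control ASO and 1.82 to 3.54 in the RNA-seq control (log2 fold change -3.42 ± 0.17, adjusted p = 8.65e-12). WDR74, a ribosome biogenesis factor, had 30.0 and 31.7 CPM against 286.9 to 330, and 21.0 to 23.7 in the RNA-seq control (-3.33 ± 0.10, adjusted p = 6.06e-15). WDR74 shares its strand with the U2 small nuclear RNA copy RNU2-2P, and reads of both cannot be told apart in these counts. SNAI1, a repressor of E-cadherin, had 1.75 and 1.71 CPM against 17.5 to 23.4 and was slightly below the 2.25 to 2.65 CPM of the RNA-seq control. The other genes among the 12 largest falls were IER5L, the homeobox gene DLX3, ZCCHC12, the pseudogene RP11-278C7.1, the RNA-decay factor ZFP36 and the polo-like kinases PLK2 and PLK5, with log2 fold changes between -3.80 and -2.81.

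Among the genes that rose, the pseudogene FAHD2CP led with 25.4 and 23.7 CPM against 3.04 to 4.13 with the control ASO (log2 fold change 2.77 ± 0.16, adjusted p = 4.48e-11). FAHD2CP and FAHD2B, which was also among the 12 largest rises (2.12), are near-identical copies, and how reads were shared between them is uncertain. RRAGD, a Rag GTPase that carries amino acid signals to mTORC1 at the lysosome, had 39.7 and 38.6 CPM against 6.90, 5.74 and 6.02 (2.67 ± 0.13, adjusted p = 5.6e-12). MAPT, which encodes the microtubule protein tau, had 53.7 and 54.9 CPM against 10.7, 9.04 and 6.92 (2.62 ± 0.13, adjusted p = 8.2e-12). HTT, which encodes huntingtin, had 257.0 and 266.6 CPM against 47.6, 46.8 and 52.1 (2.44 ± 0.08, adjusted p = 6.45e-14). In the RNA-seq control RRAGD had 40.9 to 46.7 CPM, MAPT 56.1 to 58.5 and HTT 267.7 to 308.4, all slightly above the LINC00641 ASO libraries and far above the control ASO. The 12 largest rises also included GAB2, DNAH1, SH3KBP1, FAHD2B, LAS1L, USH1C and UNC13B, with log2 fold changes between 2.08 and 2.46.

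**Figure D1:**
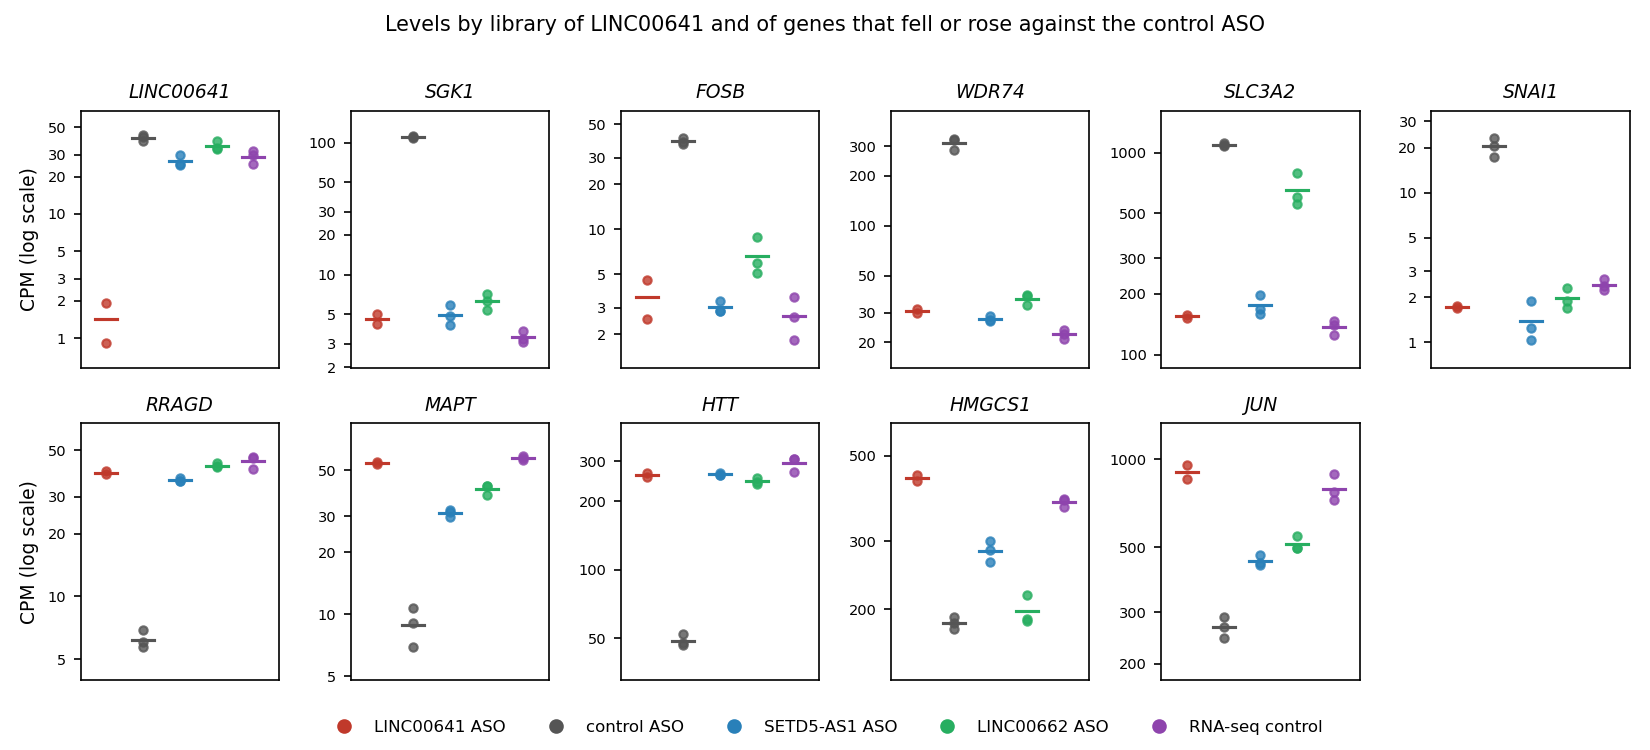
Levels in CPM, on log scales, of LINC00641 and 10 genes that fell or rose against the control ASO. Each point is a library and each bar the mean of its group. For LINC00641 the 2 treated libraries (0.915 and 1.92 CPM) lie below all others, whereas for SGK1, FOSB, WDR74, SNAI1, RRAGD and HTT the control ASO libraries lie apart from the other 4 groups.

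Each change was then marked by whether it kept its direction when the RNA-seq control was the reference, which required the 2 LINC00641 ASO libraries to lie beyond all 3 RNA-seq control libraries on the same side. Of the 2034 genes higher than with the control ASO, 425 (20.9%) held, 705 lay on the opposite side and 904 overlapped the RNA-seq control. Of the 2124 lower genes, 527 (24.8%) held, 458 lay on the opposite side and 1139 overlapped. Over all 18503 genes tested, the LINC00641 ASO libraries lay above all RNA-seq control libraries for 24.5% and below them for 25.2%, so that the share that held was near the background in both directions.

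For 1850 (91%) of the higher genes and 1894 (89.2%) of the lower genes, the control ASO libraries lay apart from all RNA-seq control libraries, below them for the former and above them for the latter, against 31.2% and 32.9% of all genes tested. The mean of the RNA-seq control, as log2(CPM + 1), was nearer to the LINC00641 ASO than to the control ASO for 1839 (90.4%) of the higher genes and 1896 (89.3%) of the lower genes, against 72.7% of all genes tested. In median, the higher genes were 1.06 above the control ASO on the log2 scale but -0.066 from the RNA-seq control on the log2(CPM + 1) scale, and the lower genes -1.24 and -0.018. The second scale understates differences of genes with few reads. The genes were chosen by their difference from the control ASO, so these shares describe them and test nothing.

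**Figure D2:**
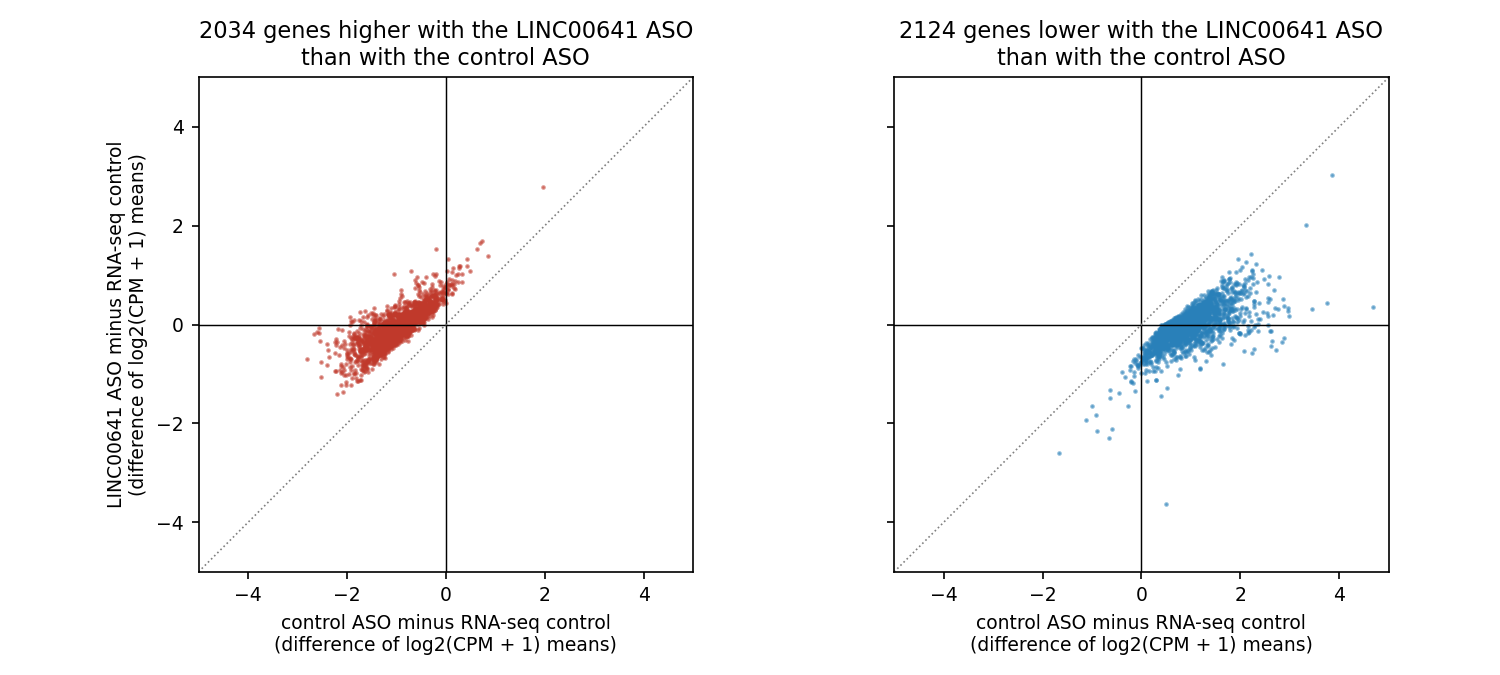
For the 2034 genes higher (left) and 2124 genes lower (right) with the LINC00641 ASO than with the control ASO, the difference of the control ASO from the RNA-seq control (horizontal) and of the LINC00641 ASO from the RNA-seq control (vertical), both as differences of mean log2(CPM + 1). Each point is a gene and the dotted line marks equality; the points spread along the horizontal axis, with medians of -0.066 and -0.018 on the vertical one.

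Changes that held and also differed from the RNA-seq control by at least 0.75 numbered 52 of the higher genes (2.56%) and 58 of the lower genes (2.73%). They numbered 19 and 29 when an average of 100 counts was also required. The share of all genes tested that met these conditions was not computed, so the counts have no background beside them. Among the lower ones were LINC00641, ZFP36, DAD1, SMARCAD1, DHX57, ZCCHC17, AGTPBP1, TMEM168, RPP14 and ELMO2, and among the higher ones DNAH1, the haem oxygenase HMOX1 and the neuroblastoma breakpoint genes NBPF10, NBPF14 and NBPF20, whose copies are close in sequence and share reads. These names, apart from those under the fixed rule, were chosen after their values were seen. ZFP36, for example, had 2.44 and 2.28 CPM with the LINC00641 ASO, 4.47 to 5.22 in the RNA-seq control and 14.8 to 19.8 with the control ASO.

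The other ASOs gave a reference that shared the table and the use of an ASO. Against the SETD5-AS1 ASO, 1.72% of 18337 genes were called, 125 higher (0.682%) and 191 lower (1.04%). With the LINC00662 ASO as reference 8.41% of 18363 were called, 1130 higher (6.15%) and 414 lower (2.25%). Leaving out either LINC00641 ASO library brought the 191 down to 92 (without replicate 2) or 93 (without replicate 3). The 3 comparisons share the LINC00641 ASO libraries, so a gene called in all of them has no independent support from each. In all 3 comparisons 14 genes were higher (0.0757% of the genes tested against the control ASO) and 27 lower (0.146%). Against the RNA-seq control, 24 of the 27 lower genes held and 3 overlapped. Of the 14 higher genes 6 held, 4 lay on the opposite side and 4 overlapped. Over all genes tested, 25.2% lay below the RNA-seq control and 24.5% above it. The 27 and 14 genes were chosen by their levels in the same LINC00641 ASO libraries, so these counts describe them and test nothing. Without replicate 2 of the LINC00641 ASO the 14 became 9.

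ZCCHC17, a nucleolar zinc knuckle protein, was among these 27 and carries the intronic LINC00641-ASO-2 site shown above, at chr1:31819787-31819806 on the plus strand. It had 27.5 and 15.5 CPM with the LINC00641 ASO, against 59.8, 80.6 and 69.2 with the control ASO and 115.1, 104.7 and 109.7 in the RNA-seq control. The log2 fold change was -1.69 ± 0.16 against the control ASO (adjusted p = 5.33e-08), -2.22 ± 0.18 against the SETD5-AS1 ASO (adjusted p = 4.96e-06) and -2.35 ± 0.14 against the LINC00662 ASO (adjusted p = 2.27e-10). The treated libraries lay below all 12 libraries of the other 4 groups. Whether the ASO acted at this site was not tested. Of the 27 lower genes, 2 (LINC00641 and ZCCHC17, 7.41%) held a LINC00641-ASO-2 site with at most 3 mismatches or a matching run of at least 15 bases, beside 0.135% of all genes tested. LINC00641 is the designed target, so ZCCHC17 alone was not fixed in advance. Of 20 tested genes whose closest LINC00641-ASO-2 site had 3 mismatches, 1 was lower and 3 higher than with the control ASO, beside 11.5% and 11% of all genes. By the same rule, a LINC00641-ASO-1 site lay in 1 of the 27 lower genes (3.7%), the target itself. Such a site also lay in 5 of the 14 higher genes (35.7%), beside 4.59% of all genes tested. The 5 were COL4A6, GSK3B, ITPR2, PPP1R9A and TFPI, each with sites in introns only. Tested genes whose closest LINC00641-ASO-1 site had 1 mismatch numbered 10, with 4 higher and none lower than with the control ASO. With 2 mismatches at the closest site, 32 genes were higher and 5 lower. With 3 mismatches, 157 of 695 were higher and 37 lower, beside 11% and 11.5% of all genes. A longer gene offers more sequence to match, and the part of gene length in these counts and shares was not tested.

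SMARCAD1, a chromatin remodeller that helps keep silent chromatin through replication, had 17.4 and 18.2 CPM with the LINC00641 ASO. The control ASO libraries had 63.8, 67.0 and 63.2 CPM and the RNA-seq control 42.6, 44.3 and 47.1. Its log2 fold change was -1.84 ± 0.10 against the control ASO (adjusted p = 2.56e-11), and of similar size when the reference was the SETD5-AS1 ASO (-1.75 ± 0.10) or the LINC00662 ASO (-1.69 ± 0.10). DAD1, a subunit of the oligosaccharyltransferase that N-glycosylates proteins in the endoplasmic reticulum, lies on chromosome 14 like LINC00641. It had 31.5 and 33.4 CPM against 130.4, 155.2 and 131.1 with the control ASO (-2.08 ± 0.10, adjusted p = 8.2e-12) and 50.4, 81.5 and 49.1 in the RNA-seq control. DHX57, a putative RNA helicase, had 25.02 and 21.3 CPM against 73.4 to 79.6 (-1.72 ± 0.10, adjusted p = 7.08e-11) and 39.5 to 50.7 in the RNA-seq control. For these 3 genes no treated library overlapped any library of another group.

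ZNF425 completed the 6 largest of the shared falls among genes that averaged 100 counts or more (-2.0). Its 6.56 and 4.35 CPM overlapped the 4.91 to 5.93 of the RNA-seq control. NEFH (-3.67), ABCC9 (-2.71) and ACE (-2.25) fell further but averaged fewer counts, and their treated libraries lay below all RNA-seq control libraries. The remaining shared falls with at least 100 counts were smaller against the control ASO, between -1.57 and -0.81, and were chosen for mention after their values were seen. AGTPBP1, which trims glutamates from tubulin tails, had 11.97 and 13.9 CPM with the LINC00641 ASO, 36.9 to 41.0 with the control ASO and 57.3 to 62.5 in the RNA-seq control. COPA, a coatomer subunit, had 54.2 and 57.6 CPM against 123.4 to 140.9 and 137.1 to 148.5. GLI2, a transcription factor of Hedgehog signalling, had 7.93 and 7.98 CPM against 13.9 to 17.4 with the control ASO, and 49.97 to 56.7 in the RNA-seq control. For AGTPBP1, GLI2 and ZCCHC17 the control ASO libraries lay between the LINC00641 ASO and the RNA-seq control.

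**Figure D3:**
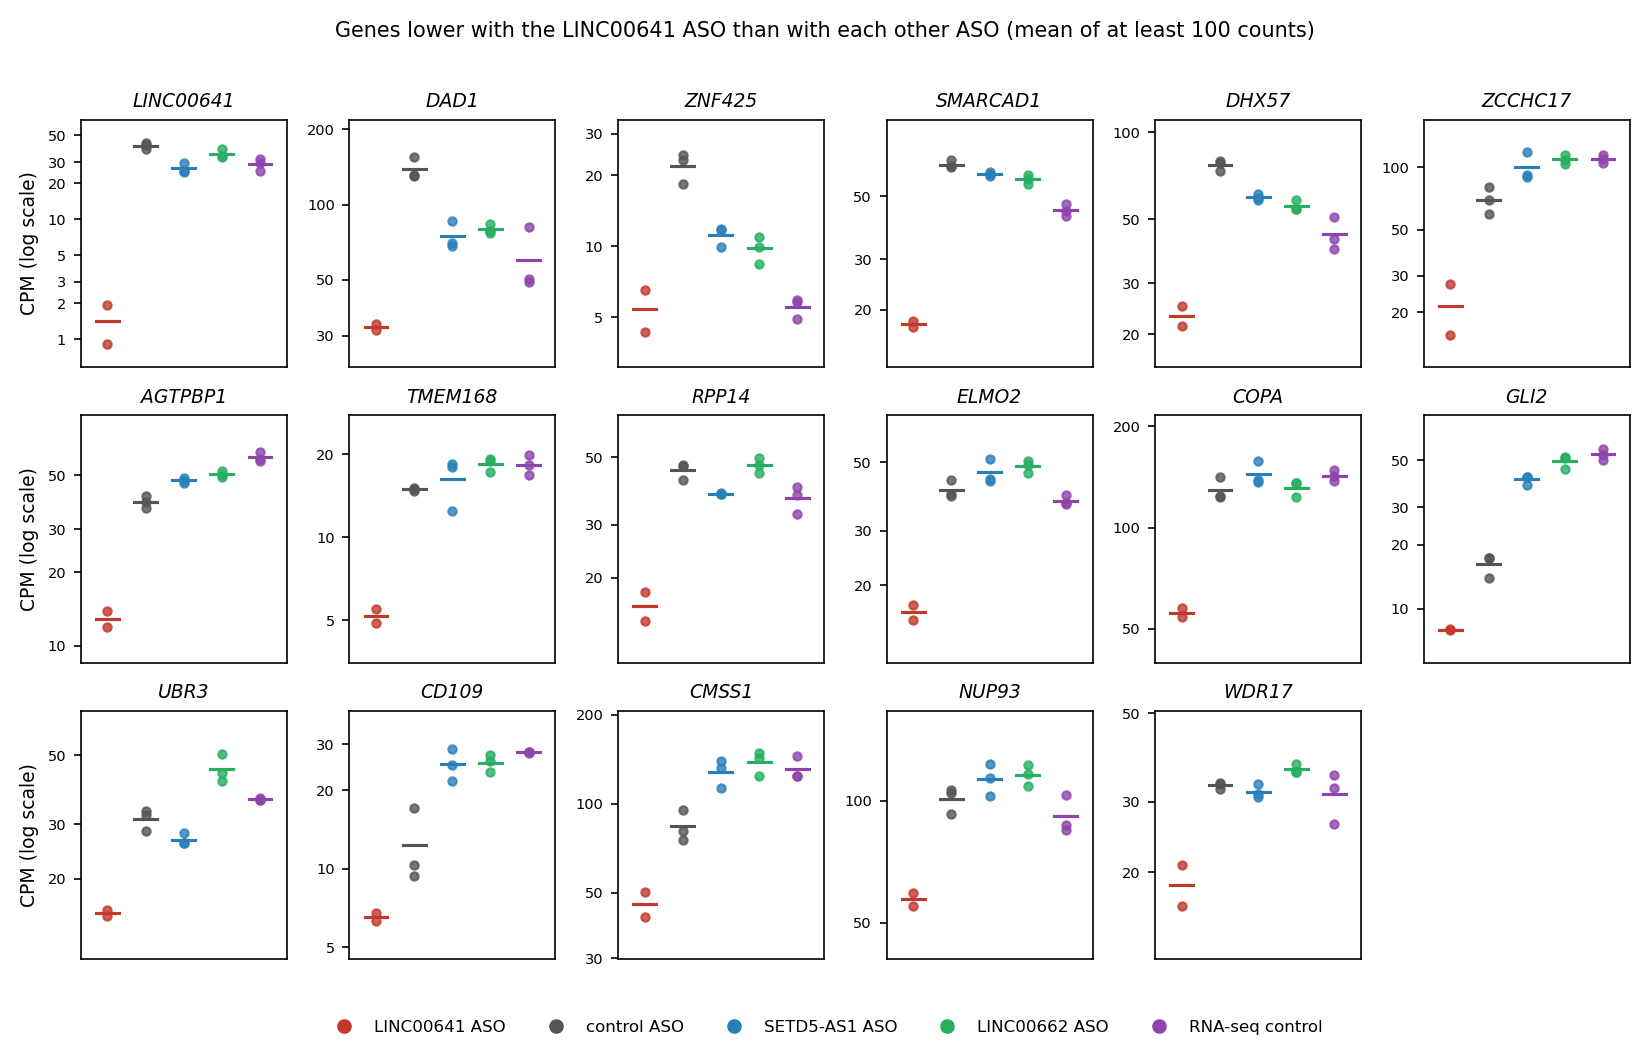
CPM by library, on log scales, of the 17 genes called lower with the LINC00641 ASO than with each of the other 3 ASOs and averaged 100 counts or more. Points are libraries and bars group means; the LINC00641 ASO libraries lie below all ASO libraries of the other groups in every panel, and overlap the RNA-seq control only for ZNF425.

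JUN, the central AP-1 subunit, was the largest shared rise among genes with at least 100 counts. It had 952.8 and 853.1 CPM with the LINC00641 ASO against 244.5, 267.0 and 288.2 with the control ASO (log2 fold change 1.78 ± 0.08, adjusted p = 5.93e-12). The SETD5-AS1 ASO mean was 448.5 ± 18.2 CPM (n = 3) and the LINC00662 ASO mean 513.1 ± 29.1 (n = 3), and the contrasts with them were 1.01 ± 0.08 (adjusted p = 4.79e-06) and 0.82 ± 0.07 (adjusted p = 3.05e-08). The RNA-seq control libraries, at 886.5, 769.6 and 724.0 CPM, overlapped those of the LINC00641 ASO, so the direction did not hold there. ICA1, YPEL1, ADAM22, PPP1R9A and COL4A6 rose by 0.84 to 1.36 against the control ASO, and none of them lay above all 3 RNA-seq control libraries. COL4A6, a basement membrane collagen, had 38.1 and 40.6 CPM against 20.9 to 23.6 with the control ASO but 82.9 to 98.3 in the RNA-seq control. PPP1R9A was not called without replicate 2 of the LINC00641 ASO (0.64, adjusted p = 0.00791).

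Immediate early genes, which growth factors and stress switch on through serum response factor and AP-1, were mostly lower. Of 28 listed and tested, 19 were lower, 3 higher and 6 not called against the control ASO, with a median log2 fold change of -1.14. Over all genes tested 11.5% were lower and 11% higher, with a median of 0.0042. Besides FOSB, those that fell included EGR1 and SPRY2, a feedback inhibitor of receptor tyrosine kinases. The 3 that rose were JUN, JUND and MYC, of which MYC held against the RNA-seq control (198.4 and 222.1 CPM against 136.2 to 156.9) and had 103.9 to 110.4 CPM with the control ASO. MYC and JUND were named after their values were seen. Of the 19 falls 2 held, beside 24.8% of all lower genes and 25.2% of all genes tested that lay below the RNA-seq control. Against the SETD5-AS1 ASO none of the list was lower and 3 were higher, and against the LINC00662 ASO 4 were lower and 1 higher.

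EGR1, a zinc finger transcription factor, had 7.02 and 7.70 CPM in the treated libraries, against 40.8 to 47.6 in those of the control ASO (-2.58 ± 0.13, adjusted p = 8.65e-12), and the RNA-seq control ran from 2.40 to 8.31. With the SETD5-AS1 ASO it was lower still, at 2.04 ± 0.335 CPM (n = 3). Its RefSeq promoter (GRCh38.p14, chr5:138465229-138465528, plus strand) is shown for a search with 1 fixed spelling of the CArG box, the serum response factor motif. It was the 1 of 20 matched promoters, of 28 immediate early genes, that held this spelling. Capitals mark the letters, searched on both strands, with an exact match in 0.0366% of 27305 promoters of the same length. Other spellings of the box were not searched, and the EGR1 promoter also holds such a spelling, left in lower case. JUN, FOSB and SPRY2 had no match to the spelling searched, which does not show that they lack a CArG box. The match describes the letters only.
EGR1 promoter: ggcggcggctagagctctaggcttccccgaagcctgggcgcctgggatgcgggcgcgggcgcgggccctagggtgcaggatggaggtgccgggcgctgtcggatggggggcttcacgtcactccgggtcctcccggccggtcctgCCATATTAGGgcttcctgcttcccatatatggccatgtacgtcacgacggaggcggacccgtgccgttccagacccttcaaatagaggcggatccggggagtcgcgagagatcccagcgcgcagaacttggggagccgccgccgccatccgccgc

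Targets of ATF4, the transcription factor of the amino acid and endoplasmic reticulum stress response, were lower in part. Of 23 tested of 24 listed, 8 were lower and 1 higher against the control ASO (median log2 fold change -0.50), beside 11.5% and 11% of all genes, and 3 of the 8 held, beside 24.8% of all lower genes and 25.2% of all genes tested that lay below the RNA-seq control. SLC3A2, the heavy chain of amino acid exchangers, had 152.3 and 156.8 CPM against 1113, 1079 and 1094 (-2.81 ± 0.08, adjusted p = 6.06e-15), with 125.3 to 146.8 in the RNA-seq control. The LINC00662 ASO libraries lay between, at 649.5 ± 122.2 CPM (n = 3). ASNS, asparagine synthetase, had 49.2 and 49.7 CPM against 158.6 to 176.3 (-1.75 ± 0.09, adjusted p = 1.22e-11) and 44.5 to 51.8 in the RNA-seq control. The ASNS promoter (RefSeq, GRCh38.p14, chr7:97872359-97872658, minus strand) holds the amino acid response letters TGATGNAA, searched on both strands and present in 3.67% of the promoters. They were found in 5 of 18 matched promoters of the list, and in 3 of the 7 matched among its lower genes. The SLC3A2 promoter held 1 match and that of SLC7A5, another member, held none.
ASNS promoter: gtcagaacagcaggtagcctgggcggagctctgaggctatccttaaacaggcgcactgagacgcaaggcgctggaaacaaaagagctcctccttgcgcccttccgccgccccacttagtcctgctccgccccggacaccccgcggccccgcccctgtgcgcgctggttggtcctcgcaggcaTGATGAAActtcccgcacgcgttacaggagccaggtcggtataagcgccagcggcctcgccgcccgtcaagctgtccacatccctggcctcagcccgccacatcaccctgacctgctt

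Polycomb genes were called at shares not far from the 22.5% of all genes. Of 13 genes of PRC2 and the H3K27 demethylases, EZH1 rose (0.78 ± 0.10, adjusted p = 1.04e-06) and the accessory subunit PHF1 fell (-0.81 ± 0.11, adjusted p = 3.91e-06) against the control ASO, and 11 were not called. The values for the core subunits were 0.10 for EZH2, 0.24 for SUZ12 and -0.20 for EED. EZH1 had 55.4 and 63.1 CPM against 33.7 to 36.3, and 70.9 to 80.7 in the RNA-seq control, so its rise did not hold, and it was not called without replicate 3 of the LINC00641 ASO (0.68) or of the control ASO (0.74). The fall of PHF1 did hold. Of 19 PRC1 genes 4 fell and none rose, beside 11.5% lower and 11% higher over all genes tested. Of these 4 falls 1 held, beside 24.8% of all lower genes and 25.2% of all genes tested that lay below the RNA-seq control. Among those that fell were PCGF1, CBX8 and RYBP, with log2 fold changes of -1.36, -0.85 and -0.81. With scaling by library size alone, PHF1 (-0.73) and RYBP (-0.74) fell short of the fold required, as did RYBP without replicate 2 of the LINC00641 ASO (-0.65). No PRC2 or PRC1 gene was called against the SETD5-AS1 ASO. With the LINC00662 ASO as reference, 1 of the 13 PRC2 and demethylase genes was higher and no PRC1 gene was called. Over all genes tested 6.15% were higher and 2.25% lower there.

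HOX genes and developmental transcription factors, which PRC2 keeps silent in many cell types, were lower rather than higher than with the control ASO. Of 25 HOX genes tested of 39 listed, 13 fell and 1 rose (HOXA13), with a median log2 fold change of -0.95. HOXC11 had 3.74 and 3.64 CPM against 18.5 to 21.9 (-2.39 ± 0.17, adjusted p = 5.93e-10) and 2.65 to 4.49 in the RNA-seq control. Of 60 developmental factors tested of 68 listed, 29 fell and 1 rose, with a median of -0.88. DLX5, a homeobox factor of bone and limb, had 5.57 and 6.34 CPM against 36.2 to 44.8 and 8.55 to 9.72 in the RNA-seq control (-2.78 ± 0.14, adjusted p = 9.86e-12). Against the RNA-seq control 3 of the 13 HOX falls and 13 of the 29 developmental factor falls held, beside 24.8% of all lower genes and 25.2% of all genes tested that lay below it. The share of all genes called lower was 11.5%. Against the SETD5-AS1 ASO no HOX gene was called, and 1 developmental factor was higher and none lower. With the LINC00662 ASO as reference, 1 HOX gene was higher and none lower, and 1 developmental factor was higher and 3 lower. Over all genes tested 6.15% were higher and 2.25% lower there. A gene silent in HEK293T cells that passed the count filter only through the control ASO had to be lower here, which limits what these counts show.

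PGBD5, a transposase-derived gene whose locus the study used as an example, had 14.1 and 16.2 CPM with the LINC00641 ASO against 8.07, 6.69 and 7.64 with the control ASO (1.04 ± 0.15, adjusted p = 1.17e-05). Both libraries were above the RNA-seq control, at 12 to 13.5 CPM, and the SETD5-AS1 and LINC00662 ASO means were 17.1 and 17.5. Among the noncoding RNAs named in the study, SETD5-AS1 fell (-0.82 ± 0.10, adjusted p = 5.14e-07) to 29.0 and 30.6 CPM, within the 29.1 to 32.0 of the RNA-seq control apart from the lower library, and LINC00893 rose (1.303 ± 0.19, adjusted p = 7.48e-06). SOX2-OT, at under 2 CPM in all 5 libraries, was lower (-1.91 ± 0.58, adjusted p = 0.0099), but not when replicate 2 of the LINC00641 ASO (adjusted p = 0.117) or replicate 1 of the control ASO (adjusted p = 0.0514) was left out. NEAT1, MALAT1, BCYRN1, H19, TINCR, AC005943.5, AC004158.2, RP11-500G22.2 and LINC00662 were not called. In this group SETD5-AS1 fell short of the fold required with scaling by library size alone (-0.7485, adjusted p = 2.002e-06), and H19 passed when replicate 2 of the LINC00641 ASO (-0.79) or replicate 3 of the control ASO (-0.80) was left out. BCYRN1 passed without replicate 3 of the LINC00641 ASO (0.77), and RP11-500G22.2 (1.87) and AC004158.2 (0.79) without replicate 3 of the control ASO. TAF7 fell (-1.13 ± 0.09, adjusted p = 2.87e-09).

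Of 27 cholesterol synthesis genes tested of 29 listed, 9 were higher, none lower and 18 not called against the control ASO, with a median log2 fold change of 0.50, beside 11% higher over all genes. Of the 9, 4 held, beside 20.9% of all higher genes and 24.5% of all genes tested that lay above the RNA-seq control. With the LINC00662 ASO as reference 4 of the list were higher and none lower, beside 6.15% and 2.25% of all genes tested. None was called against the SETD5-AS1 ASO. HMGCS1, which makes the HMG-CoA used in sterol synthesis, had 446.0 and 431.0 CPM against 178.1 to 190.5 (1.27 ± 0.08, adjusted p = 8.05e-11) and 368.6 to 385.2 in the RNA-seq control. It was 1.15 ± 0.07 above the LINC00662 ASO (adjusted p = 4.66e-10) and, by less than the fold required, 0.63 ± 0.08 above the SETD5-AS1 ASO (adjusted p = 0.00038). INSIG1, the sterol sensor that retains SREBP, had 470.8 and 548.3 CPM against 190.4 to 267.2, and overlapped the 384.4 to 538.1 of the RNA-seq control.

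Of 29 hypoxia and glycolysis genes tested, 9 were higher and 1 lower (median 0.38), beside 11% higher and 11.5% lower over all genes tested. None of these 10 held, beside 20.9% of all higher genes and 24.8% of all lower genes. Of all genes tested, 24.5% lay above and 25.2% below the RNA-seq control. PDK1, the kinase that shuts pyruvate out of mitochondria, had 69.3 and 72.3 CPM against 23.1 to 24.7 (1.60 ± 0.09, adjusted p = 6.13e-11) and 64.7 to 79.9 in the RNA-seq control. Host genes of small nucleolar RNAs fell in 6 of 11 cases and rose in none (median -0.87), beside 11.5% lower and 11% higher over all genes. None of the 6 held, beside 24.8% of all lower genes. GAS5 had 59.8 and 63.5 CPM against 188.5 to 211.8 (-1.66 ± 0.09, adjusted p = 2.43e-11) but only 33.8 to 41.4 in the RNA-seq control. NF-kB targets fell in 5 of 15 cases and endoplasmic reticulum chaperones in 5 of 17, beside 11.5% of all genes. None was higher in either list, beside 11% of all genes. Ribosomal protein genes were lower in 5 of 81 cases and higher in 1, and replication and mitosis genes lower in 4 of 38 and higher in 1, which is at or below the 11.5% lower over all genes. Cadherin genes (8 of 35 higher, 6 lower) and potassium channel genes (9 of 62 higher, 8 lower) moved both ways, as did all genes tested (11% higher, 11.5% lower).

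**Figure D4:**
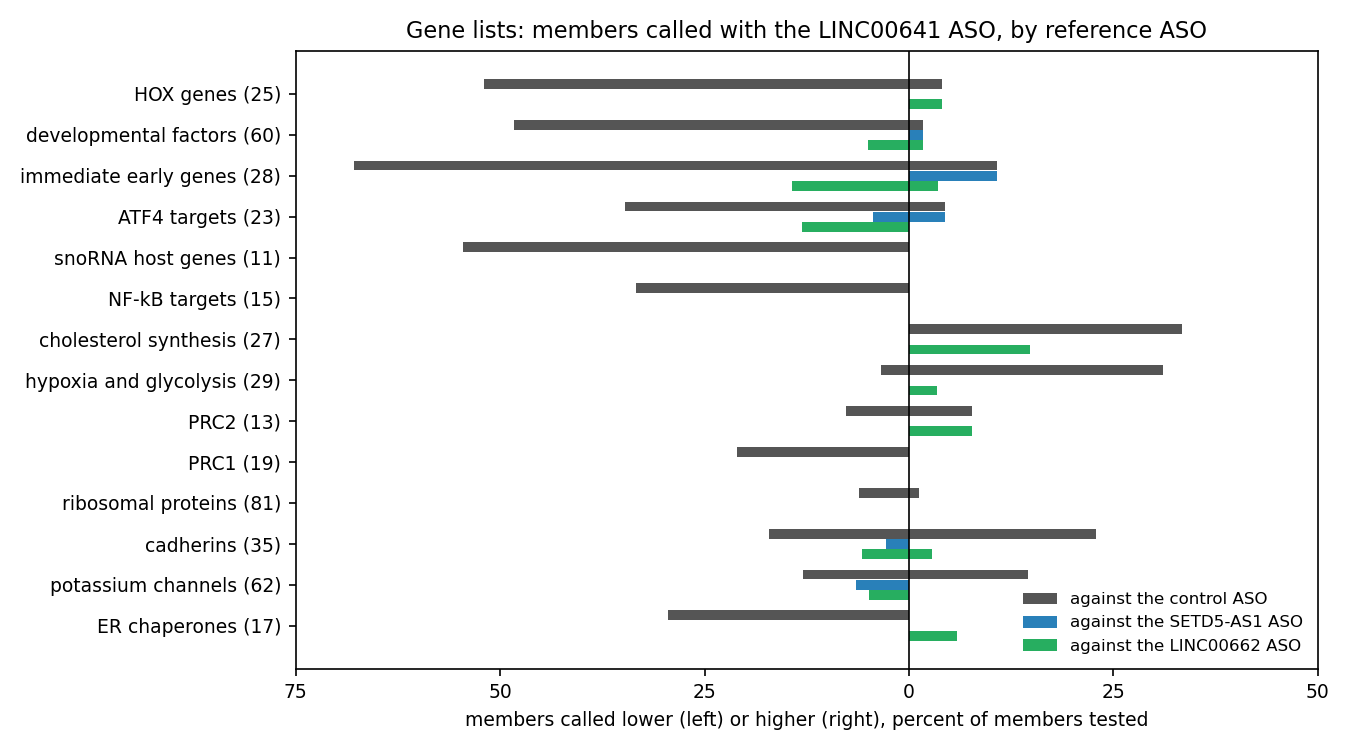
Share of the tested members of 14 gene lists that were called lower (to the left) or higher (to the right) with the LINC00641 ASO, in percent, by which ASO was the reference; the number tested against the control ASO is in brackets. Immediate early genes reach 19 of 28 lower against the control ASO, and against the SETD5-AS1 ASO no HOX, PRC1, PRC2, NF-kB or cholesterol gene was called. Of these 5 lists, 1 HOX, 1 PRC2 and 4 cholesterol genes were higher against the LINC00662 ASO.

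The neighbours of LINC00641 on chromosome 14 were examined next. Within 500 kb the annotation lists 66 genes, of which 16 had enough reads to test; 3 were lower and none higher than with the control ASO, beside 11.5% and 11% of all genes, so the share called was near that of all genes. HNRNPC, which encodes a nuclear RNA-binding protein and lies 2.24 kb away, had 919.5 and 821.3 CPM against 838.4, 922.9 and 821.7, a log2 fold change of 0.033 ± 0.081 (adjusted p = 0.761) whose sign changed when single libraries were left out. METTL17, on the other side of LINC00641, had 94.7 and 106.6 CPM against 191.1 to 198.8 (-0.93 ± 0.09, adjusted p = 2.16e-08), and 102.2 to 116.3 in the RNA-seq control. TOX4, 269.7 kb away on the side of HNRNPC, had 47.6 and 48.1 CPM against 94.2 to 102.9 (-1.03 ± 0.09, adjusted p = 1.02e-08), and both libraries lay below the 52.4 to 60.6 of the RNA-seq control. The third, RP11-84C10.4, overlaps METTL17 on the opposite strand and had under 2 CPM in each library. None of the 3 was called with either other targeting ASO as the reference. SALL2, METTL3 and CHD8 were not called (0.15, 0.40 and -0.52), and ZNF219, at 0.746, was just short of the fold required and passed it with scaling by library size alone (0.82), with the replicate block (0.77), and without replicate 2 of the LINC00641 ASO (0.78) or replicate 1 of the control ASO (0.76).

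**Figure D5:**
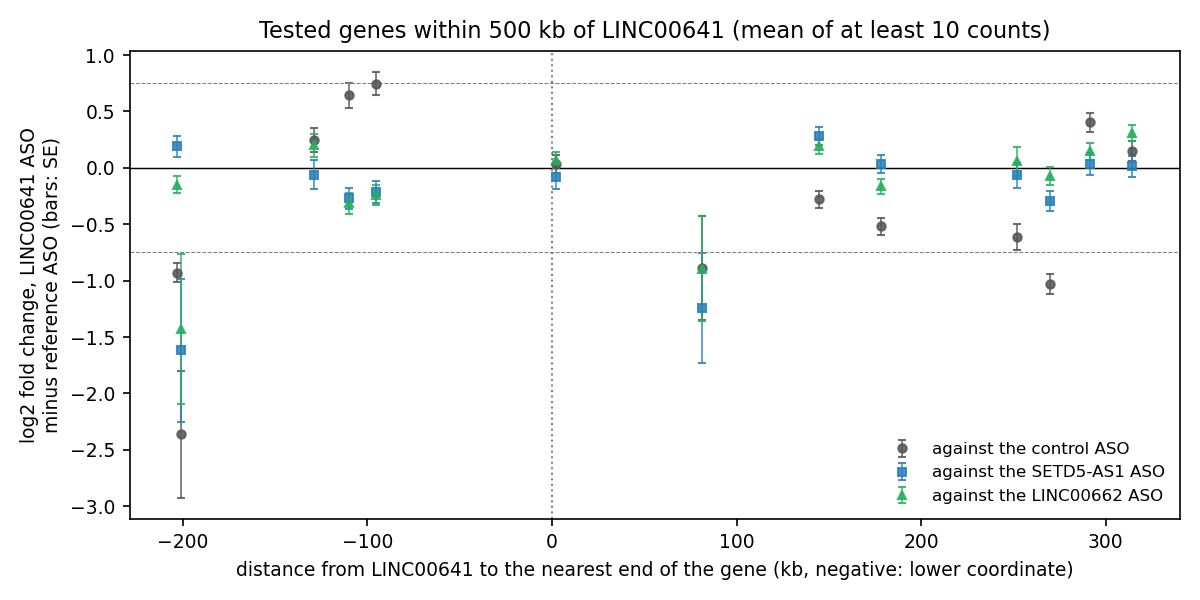
Log2 fold change of the tested genes within 500 kb of LINC00641 that averaged 10 counts or more, against each of the 3 other ASOs (bars: SE), by distance in kb. Dashed lines mark a change of 0.75; METTL17 (-0.93) and TOX4 (-1.03) lie beyond them for the control ASO, and HNRNPC, the nearest gene, lies at 0.033.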

How the data were processed

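Poly(A) RNA was sequenced as paired ends. Per the labels and the study's methods, the authors trimmed reads with fastp 0.23.1, aligned them to hg19 with HISAT2 2.1.0 and deposited raw gene counts from featureCounts 2.0.1 with GENCODE v19. Whether strand was used is not given in the sources used here. The deposited gene lengths equal whole gene spans, so intronic reads may be counted.

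Genes with a summed count above 3 per library were tested by edgeR 4.0.16 (R 4.3.3) with TMM scaling and the quasi-likelihood test, fitting each pair of groups separately, with Benjamini-Hochberg adjustment over all genes tested. SE is the log2 fold change over the root of F. CPM used TMM factors set over 14 libraries of 2 tables, so levels across them are descriptive. No pair of replicates had a chi-square below 2.783 per gene. On simulated counts of 18229 genes for the control ASO comparison, 98% of changes of -1 and 100% of 1 on the log2 scale were recovered, with 8 false calls. The changed genes, 50 per size of change, all averaged at least 100 counts. Recovery at lower counts was therefore not measured, and far fewer genes were changed than were called in the data.

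The members and gene lists were chosen with earlier results of these data known. Named genes were LINC00641, those the study names, the 12 largest rises and falls among genes averaging 100 counts or more whose groups did not overlap, the 6 largest of each shared by all 3 references, neighbours within 500 kb, and up to 4 called members of each of 33 lists. ASO sites were searched in hg19 with up to 3 mismatches or a run of at least 15 bases. Promoters were matched by symbol to RefSeq. Alternatives covered scaling, filters, DESeq2 1.42.0, the fold threshold, a replicate block and leaving out each library. The Chrom-seq files were not used here, and some genes named by this rule are not reported here.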

Additional observations from a re-analysis of the deposited data

How the results depend on the processing

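Of 136 recomputed counts and shares, 118 stayed within a factor of 1.5 of the main value and 18 moved. With no fold threshold, 4669 genes were higher and 4521 lower than with the control ASO, 575 and 507 with the SETD5-AS1 ASO as reference, 2444 and 2065 with the LINC00662 ASO, and 134 and 97 in all 3. Without a count filter, 306 genes were lower than with the SETD5-AS1 ASO. By sign alone, 42.87% of the higher and 53.06% of the lower genes held against the RNA-seq control. Over all genes tested, 50.28% lay above it and 49.62% below it by the same rule.

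Leaving out 1 library at a time gave 1829 to 1999 higher and 1947 to 2119 lower genes against the control ASO, 85 to 144 and 92 to 212 against the SETD5-AS1 ASO, 978 to 1115 and 321 to 377 against the LINC00662 ASO, and 9 to 18 and 20 to 28 in all 3. The shares that held ran from 20.39% to 33.57% and from 24.65% to 38.33%. The highest shares came with 1 LINC00641 ASO library, where separation from the RNA-seq control is easier by construction: the backgrounds were then 35.49% and 33.52% without replicate 2, and 34.49% and 32.98% without replicate 3, and the lone library was assumed to vary like the others.

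Groups shared only replicate numbers: the differences of replicates 2 and 3 correlated at 0.00958 over genes between both ASO groups. With the replicate block 1847 genes were higher and 1922 lower than with the control ASO, 133 and 197 with the SETD5-AS1 ASO as reference and 1073 and 371 with the LINC00662 ASO. Library size alone gave 2413 and 1835, moving the higher share of calls from 48.92% to 56.8%, and DESeq2 gave 1748 and 1893.

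Of 2140 values for named genes, 14 changed sign, none of them called. With 1 library left out at a time, AE000658.22 ran from -0.4991 to 0.1329, HNRNPC from -0.04329 to 0.1122, TINCR from -0.03757 to 0.179, RP11-500G22.2 from -0.1984 to 1.872 and BCYRN1 from -0.2149 to 0.7681. With the replicate block AE000658.22 was at 0.07109, TINCR at -0.01838 and BCYRN1 at -0.03341. The cause was not tested. A further 38 lost and 20 gained a call.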
